A study of Eohaustorius estuarius with 16 samples.

Results

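Among the transcripts measured in whole-body RNA of the amphipod Eohaustorius estuarius, 83 differed by large factors between RNA extracts of the same treatment. They were chosen by that spread: of 8507 array probes, 7556 were well above background on at least 8 of 16 arrays, and 83 of these, or 1.10%, had a standard deviation (SD) within groups of 2 or more on the log2 scale. The SD within groups is the square root of the mean of the variances among exposed and among control animals. The spread of these probes, their correlations with each other and their differences between slides are therefore described without a test.

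Animals of the cyfluthrin group had lived for 10 days in sediment to which cyfluthrin, a pyrethroid insecticide, had been added at a nominal 1.6 µg/kg. Control animals had lived for the same time in sediment treated with solvent only. Extracts of 8 exposed and 8 control whole bodies, all prepared by a single laboratory, were labelled with Cy3 and hybridised to 1 array each in laboratory A of a comparison between laboratories. The labels number the extracts as separate samples but give no sex, size, moult or reproductive stage of an animal. They also do not say whether an extract came from 1 body or from several pooled, so an animal below stands for 1 numbered extract, and a spread between animals for one between extracts. If nothing but these numbers separates the samples, p-values measure the spread between these extracts only.

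Eohaustorius estuarius is a small burrowing crustacean of estuarine sand that is used to test sediments for toxicity. Pyrethroids hold open the sodium channels that carry nerve impulses, and crustaceans are sensitive to them. In RNA of a whole body, each level sums over every tissue of the animal, so fewer cells of a type and less RNA per cell cannot be told apart. Each probe was designed to an assembled transcript (contig), and 0 of the 83 are paired with a gene name in the files. No role can be given for any of them, and the tissue could not be checked against its markers.

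The arrays lay on 2 slides, each with 4 exposed and 4 control arrays. On both slides the exposed animals took row 2 and the controls row 1, and exposure cannot be told apart from the row. The slides were scanned at different times and read with different extraction protocols. The 75th percentile of the spot signal was 251 to 633 on exposed arrays and 240 to 553 on control arrays, and 0 spots of the chosen probes were saturated. Levels are given below as log2 of the signal over that percentile, so a level of 0 equals the 75th percentile of the array. Signals under 0.02 of the percentile were set to 0.02, which is a level of -5.64. This floor makes some ranges lower bounds.

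The chosen probes spanned far more than the others. Their median SD within groups was 2.66, with values of 2.01 to 4.10, against 0.43 at the median and 1.18 at the 95th percentile of all tested probes. Between the lowest and the highest array a chosen probe spanned 7.93 log2 units at the median, or 244-fold, against 1.60 log2 units, or 3.04-fold, over all tested probes. The narrowest range among them was 5.09 and the widest 11.5 log2 units. Just inside the threshold lay contig_1013, contig_375 and contig_5417, with SDs of 2.008, 2.009 and 2.009. Just outside lay contig_3434, contig_6755 and contig_3456, with SDs of 1.989, 1.983 and 1.974. The threshold thus cut a continuous range, in which 650 tested probes had an SD of 1 or more and 20 an SD of 3 or more.

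Many of the low values were too dim to measure. Of 1323 values of the 83 probes, 64 or 4.84% were at the floor, against 1.13% over all tested probes. Of the 83 probes, 50 never reached the floor. All 83 passed the filter on dim probes by the rule, but only 27, or 32.5%, were well above background on all 16 arrays, against 79.9% of the tested probes. The dimmest passed on 8 arrays. Spots marked as outliers left 5 of the probes without a value on 1 array.

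**Figure D1:**
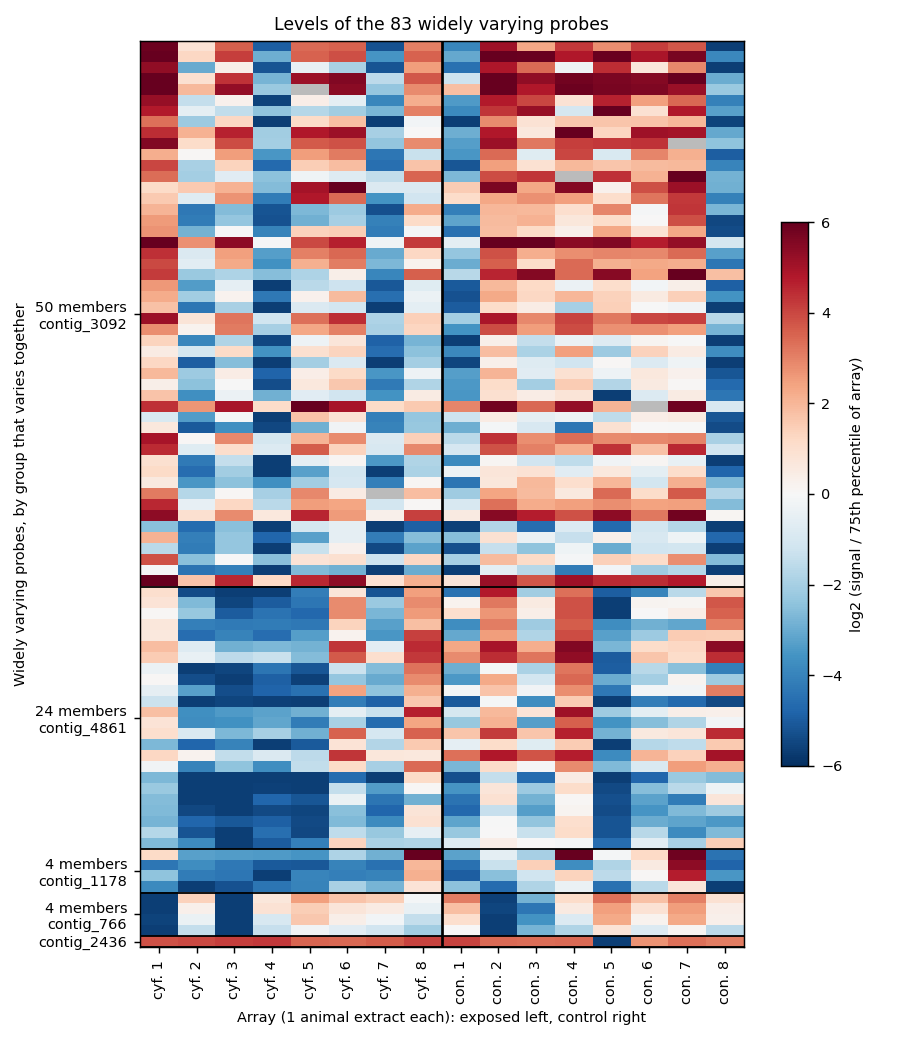
Levels of the 83 probes (rows) on 8 exposed arrays, left of the vertical line, and 8 control arrays, right of it. Colour gives log2 of the signal over the 75th percentile of the array, and grey marks a missing value. Horizontal lines part the sets that vary together. The first, with 50 probes, is mostly pale or blue on exposed animals 4 and 7 and on control animals 1 and 8.

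The members did not vary independently. With the mean of each exposure group removed, pairs of them had a median Pearson r of 0.44 over the 16 arrays, from 3403 pairs, against 0.07 for pairs of all tested probes. An r above 0.8 was reached by 27.8% of their pairs and by 3.44% of all pairs. Since the rule picked probes with a wide spread, and points share an array and its scaling, these values are a description. Joined by average linkage at an r of about 0.5, the 83 fell into sets of 50, 24, 4 and 4 probes and contig_2436 alone. Each set is called below by the contig with the highest mean correlation to the rest of it, which are contig_3092, contig_4861, contig_1178 and contig_766.

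The set of contig_3092 held 50 probes that were mostly dim in the same few animals. Its median level was -3.66 in exposed animal 4 and -3.90 in exposed animal 7, and -3.22 in control animal 1 and -3.93 in control animal 8. In exposed animal 2 it was -1.99. On the other 11 arrays it lay between 0.30, in exposed animal 3, and 2.95, in exposed animal 1. The 4 lowest animals thus came from both exposure groups and from both slides, with 1 exposed and 1 control animal on each slide. The widest step between neighbouring medians, 2.29, lay above the 5 lowest arrays, with exposed animal 2 of slide 1 among them. The even split therefore holds for the 4 lowest only. For 34 of the 50 probes exposed animals 4 and 7 and control animals 1 and 8 were exactly the 4 lowest, and for 41 they were among the 5 lowest.

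Contig_3092 itself had levels of -2.79 at the lowest, 4.05 at the median and 7.46 at the highest in exposed animals. In control animals the same values were -2.98, 5.57 and 7.0. Its probe was well above background on all 16 arrays, so its range of 10.4 log2 units holds no floor value. It was dim in the same 4 animals, at -2.79 and -1.58 in exposed animals 4 and 7 and at -1.24 and -2.98 in control animals 1 and 8, and the ranges of both groups overlapped almost fully.

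The 3 greatest SDs of all also belonged to this set. Contig_274, with an SD of 4.10, ran from -5.21 over a median of 3.21 to 5.87 in exposed animals and from -5.64 over 3.27 to 5.07 in control animals. Contig_130, with an SD of 4.04, ran from -3.52 over 3.53 to 7.51 in exposed animals and from -3.88 over 5.28 to 7.02 in control animals. Contig_2245, with an SD of 3.83, ran from -5.18 over -1.20 to 5.34 in exposed animals and from -5.64 over 1.78 to 4.83 in control animals. All 3 were highest in exposed animal 1 and lowest in control animal 8, and each was at its 4 lowest levels in the animals named above.

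For contig_130, all 16 values were well above background. Its signal before scaling was 69619 units in exposed animal 1 and 49.4 units in exposed animal 7. Among control animals it was 41824 units in animal 2 and 24.3 units in animal 8. Even its dimmest spots were thus measurable, at signals far below those of other animals of the same treatment.

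Arrays on which this set was dim did not stand apart in the share of all probes detected. Of the probes on the array, 85.0% and 92.5% were well above background for exposed animals 4 and 7 and 84.7% and 81.0% for control animals 1 and 8. Exposed animal 1, in which the set was brightest, had the lowest share of all, 79.0%, and the highest share was 97.8%, in exposed animal 6. Within the set, 33 and 40 of 50 probes were well above background in exposed animals 4 and 7, and 35 and 29 in control animals 1 and 8. On each of the other 12 arrays at least 49 were.

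**Figure D2:**
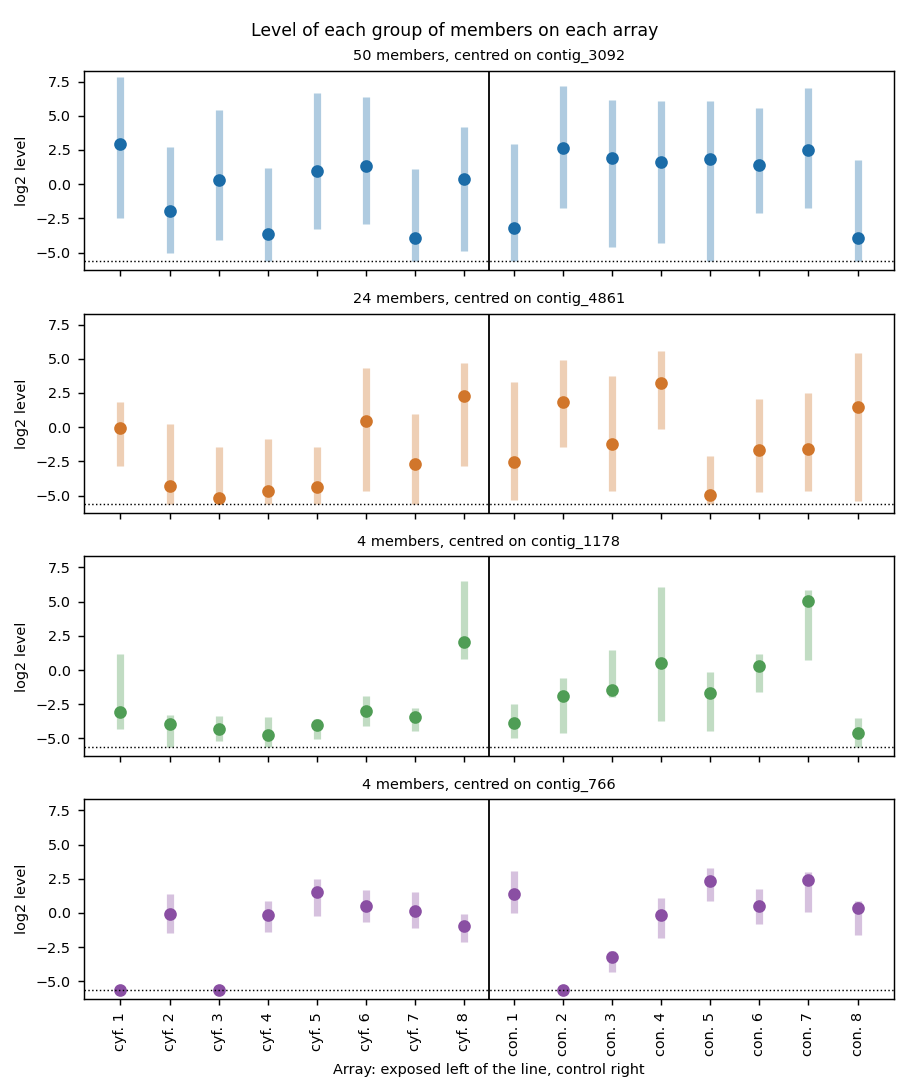
Level of each set of probes on each array, as log2 of the signal over the 75th percentile, with exposed animals left of the vertical line and control animals right of it. Points are medians over the set, bars run from its lowest to its highest probe and the dotted line is the floor; the medians of the first set fall below -3 in exposed animals 4 and 7 and control animals 1 and 8, of which exposed animal 4 is also low in the sets of contig_4861 and contig_1178.

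The set of contig_4861 held 24 probes, and its order of animals was only partly that of the first set. Its median level was low in exposed animals 2, 3, 4 and 5, at -4.33, -5.20, -4.65 and -4.40, and in control animal 5, at -4.95. It was high in exposed animal 8, at 2.26, and in control animals 4, 2 and 8, at 3.25, 1.81 and 1.47. In the remaining exposed animals it was -0.09, 0.48 and -2.67, and in the remaining control animals -2.51, -1.22, -1.68 and -1.58. The low arrays lay on both slides. The widest step between neighbouring medians was 1.66, above the 5 lowest arrays. In the set of contig_3092 it was 2.29, also above the 5 lowest arrays, exposed animal 2 included.

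The 2 large sets were alike in some animals and opposite in others. Exposed animal 4 was low in both, with medians of -3.66 in the set of contig_3092 and -4.65 in that of contig_4861, and control animal 2 was high in both, at 2.64 and 1.81. Exposed animal 7 and control animal 1 were also below -2 in both. Control animal 8 had the lowest median of the set of contig_3092, at -3.93, and a high median of the set of contig_4861, at 1.47. Exposed animal 5 and control animal 5 were the opposite, with medians of 0.95 and 1.83 in the first set and of -4.40 and -4.95 in the other. Over the 16 arrays the mean profiles of both sets, with group means removed, had an r of 0.24. Within a set the median r was 0.85 for 1225 pairs of the first and 0.84 for 276 pairs of the other, with lowest values of 0.13 and 0.38.

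Contig_4861 is printed on each array in 11 spots, whose mean gives its level. In exposed animals it ran from the floor of -5.64 over a median of -4.49 to 0.06, and in control animals from -5.40 over -1.92 to 1.11. The most variable probe of the set was contig_206, with an SD of 3.59. It ran from -5.64 over -4.66 to 2.46 in exposed animals and from -4.96 over -1.85 to 4.74 in control animals. Its lowest values were in exposed animals 2, 3, 4 and 7 and its highest in exposed animal 8 and control animals 2, 4 and 8, and the ranges of the groups overlapped.

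Contig_1178 was joined by contig_2881, contig_3644 and contig_6227 in a set of 4, named here after their values were seen. Their pairs had an r of 0.64 to 0.92. These probes were dim in most animals and bright in a few. The median of the set was 2.06 in exposed animal 8 and between -4.72 and -2.96 in the other 7 exposed animals. It was 5.04 in control animal 7, 0.48 in control animal 4, 0.32 in control animal 6 and between -4.62 and -1.49 in the remaining controls.

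Contig_3644 had the fifth greatest SD of the 83, at 3.71, and was well above background on all 16 arrays. It stood at 6.47 in exposed animal 8, 1.17 in exposed animal 1 and between -3.55 and -1.87 in the other 6 exposed animals. Among controls it stood at 6.08 in animal 4 and 5.81 in animal 7, at 1.17 in animal 6 and between -4.42 and -0.11 in the other 5. In signal units it was 40394 in exposed animal 8 and 23.6 in exposed animal 4.

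The set of contig_766, contig_1262, contig_3621 and contig_7110 was the tightest, with r between 0.96 and 0.99; its members are likewise named after their values were seen. It was at or near the floor in a few animals and well above it in the rest. In exposed animals 1 and 3 its median was at the floor, -5.64, and in control animal 2 it was -5.62. None of the 4 probes was well above background on these 3 arrays. In control animal 3 the median was -3.21, with 3 of 4 probes well above background. On the other 12 arrays the median lay between -0.94, in exposed animal 8, and 2.39, in control animal 7, and all 4 probes were well above background.

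All 4 low arrays of this set were on slide 1, whose other 4 arrays, from exposed animals 2 and 4 and control animals 1 and 4, had medians of -0.05, -0.15, 1.41 and -0.16. The mean level on slide 2 was therefore 3.32 above that on slide 1 at the median of the set, and the part of the slide in this was not tested. Exposed animal 1 and control animal 2, dim here, had the highest medians of the set of contig_3092, 2.95 and 2.64, and the mean profiles of both sets had an r of -0.38 over 16 arrays. Contig_766 ran from -5.64 over 1.03 to 2.46 in exposed animals and from -5.60 over 1.43 to 3.32 in control animals.

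Contig_2436 owed its place to 1 spot. Its level was 3.44 to 4.23 in the 8 exposed animals and 2.69 to 4.07 in 7 control animals, and at the floor in control animal 5. That probe has 1 spot per array, and on that array its processed signal was -21.0, with a median pixel signal of 23 over a local background of 24. Without that array its SD within groups was 0.37. The spots directly above and below it on the same array were also dim, at -3.89 and -4.76 log2 units from their own levels elsewhere. The other 34 spots within 3 positions deviated by -1.40 to 0.93. Contig_1420, of the first set and also with 1 spot per array, was at the floor in control animal 5 too. Its processed signal there was -14.7, with a median pixel signal of 30 over a local background of 21. The 23 spots within 3 positions of it deviated by -4.19 to 0.87. Unlike that of contig_2436, its SD without that array stayed wide, at 2.08.

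Repeated spots of a probe gave nearly the same level. Of the 83 probes, 55 were printed in 2 spots, 24 in 1 spot and 4 in 10 or more. Between the 2 spots of a probe the SD was 0.18 at the median and 0.86 at most, against a median of 0.16 over 5535 tested probes with 2 spots. Levels from the 2 spots correlated over arrays with a median r of 0.996 and a lowest r of 0.84. Spots of 1 array share their extract, labelling and hybridisation, whose part in the spread between arrays was not tested. The 4473 other probes printed within 3 positions of these spots had a median SD of 0.43, that of all tested probes. They were most of the 7556 tested probes, so their median could hardly differ, and the part of array position was not tested.

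For most of the probes the spread remained when slides were kept apart. Measured within each group on each slide, the median SD of the 83 was 2.65, against 0.37 for all tested probes, and 79 of the 83 still reached 2. These SDs use the values that chose the probes, so they are a description and in part follow from the choice. The mean on slide 2 minus the mean on slide 1 was 0.02 at the median of the 83 and 0.16 at the median of all tested probes. It was above 0 for 43 of the 83 and for 65.1% of the tested probes, and without its sign it was 0.41 at the median of the 83. The set of contig_766 differed from this, with the shift of 3.32 given above and a median SD of 2.43 within group and slide, against 2.87 within groups.

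The probes also took a very uneven share of the signal. Their share of the summed signal of all probes was 0.305% to 10.3% in exposed animals, with a median of 3.16%, and 0.723% to 9.38% in control animals, with a median of 5.06%. The lowest shares were those of exposed animals 4, 7 and 2, at 0.305%, 0.336% and 0.604%, and of control animals 1 and 8, at 0.723% and 1.70%. The groups overlapped over nearly the whole range.

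**Figure D3:**
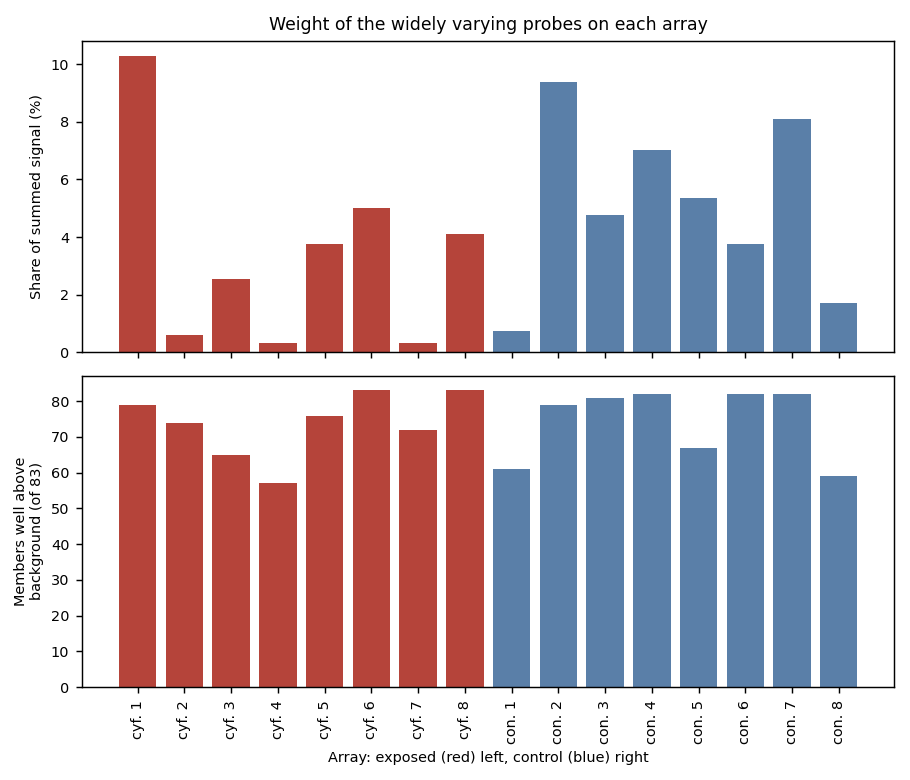
Share of the summed probe signal held by the 83 probes, in percent (top), and number of the 83 well above background (bottom), by array, with exposed animals in red at the left and control animals in blue at the right. The share runs from 0.305% to 10.3% in exposed animals and from 0.723% to 9.38% in control animals, and the number well above background from 57 to 83 and from 59 to 82.

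Whether wide variation was shared by both treatments can be read from groups that did not choose the probes. Of 80 tested probes with an SD of 2 or more among control animals alone, 66, or 82.5%, also had an SD of 2 or more among exposed animals, where 1.15% of the tested probes did. Their median SD among exposed animals was 2.58. In the other direction, 66 of 87 probes with such an SD among exposed animals, or 75.9%, had it among control animals, where 1.06% of the tested probes did, and their median SD among control animals was 2.53. Probes that swung among animals of one treatment thus mostly swung among those of the other. Of the 80 and the 87 probes, 73 and 76 were among the 83, which move together in a few sets. They are therefore not 80 or 87 separate observations.

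No difference in spread between the treatments passed the test. For the 83 the median SD was 2.56 among exposed animals and 2.64 among control animals, and 39 of the 83 had the larger SD among exposed animals, against 55.2% of the tested probes. An SD of 2 or more was reached in both groups by 66, in exposed animals only by 10 and in control animals only by 7. In a test of absolute deviations from the group mean (limma, Benjamini-Hochberg over 7556 probes), 0 of the 83 differed in spread, with 0.0265% of the tested probes called. At an unadjusted p below 0.05 there was 1 of the 83, contig_2436 (adjusted p = 0.84 by limma), and 417 of the tested probes, or 5.52%. On simulated data this test found 33% of probes whose spread was made 8 times as wide, and smaller differences were not simulated. Those probes were taken from all tested probes and drawn independently, with no floor. The 33% therefore does not tell how often the test would find a difference in spread among the 83.

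**Figure D4:**
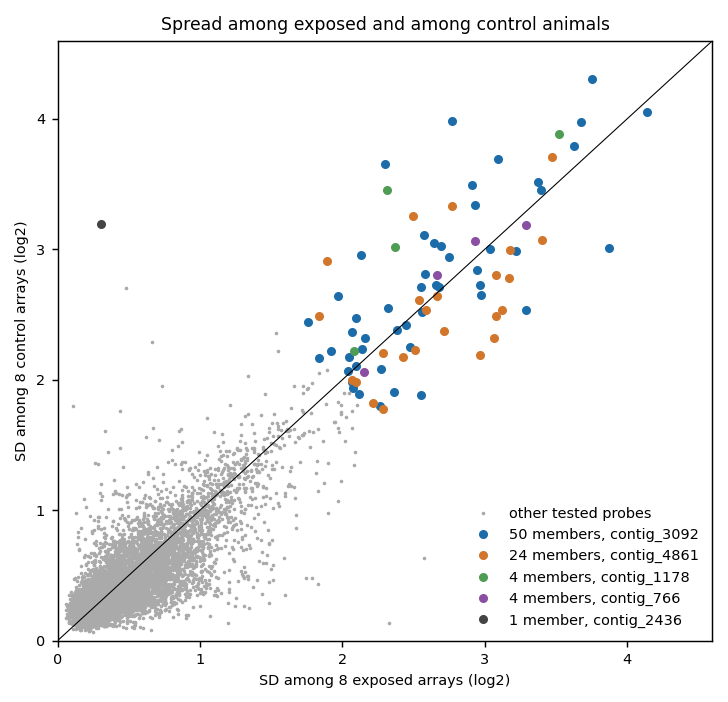
SD among 8 exposed arrays (horizontal) against SD among 8 control arrays (vertical), on the log2 scale, for the 83 probes (coloured by set) and the other tested probes (grey), with the line of equal SD. Of the 83, 66 reach 2 on both axes and 39 lie on the exposed side of the line, and contig_2436 stands far from it at upper left.

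The study set exposed against control animals, and 0 of the 83 probes passed the test of mean levels (limma, adjusted p below 0.05, 8 animals a group), with 2.29% of the tested probes called, 1.14% as higher and 1.15% as lower in exposed animals. With the slide as a block 0 of the 83 passed, with 3.84% of the tested probes called, and with the replicate number as a block 0 passed, with 2.21% called. The SD that chose the probes is the error of this test, so few calls follow from the choice. The median standard error of a difference was 1.23 log2 units for the 83, against 0.21 over all tested probes. At an unadjusted p below 0.05 there were 4 of the 83, or 4.82%, and 13.3% of the tested probes. For 0 of the 83 did every exposed animal lie above every control animal, or every exposed animal below, which held for 0.701% and 0.49% of the tested probes.

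The differences had mostly 1 sign without passing the test. Exposed minus control was negative for 80 of the 83, or 96.4%, against 60.7% of the tested probes. Its median was -1.05, against -0.07 over all tested probes. It was -1 or lower for 46 of the 83, or 55.4%, against 1.68% of the tested probes, and 1 or higher for 1. The spread that chose the probes also widens their differences, with a median standard error of 1.23 against 0.21. A larger share of differences beyond 1 log2 unit, in either direction, therefore follows from the choice. The rule does not use the sign, and why 46 lay at -1 or lower and 1 at 1 or higher was not tested. Because probes of a set move together from animal to animal, these 83 signs are not 83 observations. The median difference was -0.67 for the set of contig_3092, with 48 of 50 negative, and -1.73 for the set of contig_4861, with 24 of 24 negative. It was -2.02 for the set of contig_1178 and -0.92 for the set of contig_766, with 4 of 4 negative in each.

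Values within each slide differed from each other. On slide 1, with 4 animals a group, 81 of the 83 were negative and the median was -1.40, while the median of all tested probes was -0.20. On slide 2, 55 of the 83 were negative and the median was -0.21, with 0.08 over all tested probes. On slide 1 alone 4 of the 83 passed the test, with 1.26% of the tested probes called there, and on slide 2 alone 0 did, with 1.2% called. A difference between the slides in the response to exposure was not tested. Without any single array, 66 to 82 of the differences were negative and their medians ran from -1.40, without control animal 1, to -0.70, without exposed animal 4.

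The 4 called on slide 1 were all of the set of contig_4861 and are named for that call. Since their values on slide 1 chose them, smaller differences on slide 2 follow in part from the choice. Contig_3 differed by -4.36 there (adjusted p = 0.017) and by -0.14 on slide 2. Contig_185 differed by -4.16 (adjusted p = 0.019) on slide 1 and by -0.20 on slide 2. Contig_2458 differed by -4.61 (adjusted p = 0.024) on slide 1 and by 0.73 on slide 2. Contig_4122 differed by -4.41 (adjusted p = 0.037) on slide 1 and by 1.02 on slide 2. All 4 adjusted p-values are from limma over all tested probes. On slide 2 the spread of these probes within each group was wide: contig_3 ran from -1.55 to 4.29 in exposed animals 5 to 8 and from -3.79 to 4.98 in control animals 5 to 8.

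The difference furthest below 0 was that of contig_1413, of the set of contig_3092. Its levels were -3.91, -1.86 and 4.20 at the lowest, median and highest in exposed animals, against -1.65, 3.99 and 6.58 in control animals. Exposed animals 1 and 8 were high, at 4.20 and 3.57, and control animals 1 and 8 low, at -1.65 and 1.79, so the groups overlapped. Exposed minus control was -4.05 with a standard error of 1.30 (limma, adjusted p = 0.14). On slides 1 and 2 alone it was -3.57 and -4.53. With arrays weighted by their quality in limma it was -4.88 (adjusted p = 0.023), the 1 call among the 83 in that fit, which called 3.77% of the tested probes.

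Contig_6192, of the same set, followed. Its levels were -5.25, -2.65 and 2.25 at the lowest, median and highest in exposed animals, against -4.12, 1.48 and 4.28 in control animals. Exposed animals 1 and 8 were again the high ones, at 2.04 and 2.25, and control animals 1 and 8 the low ones, at -4.12 and -2.74. The difference was -2.89 with a standard error of 1.34 (limma, adjusted p = 0.36).

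On the positive side stood contig_2436, whose difference of 1.64 (standard error 1.05, adjusted p = 0.55 by limma) rested on the spot in control animal 5 described above: without that array it was 0.52. Contig_1420 followed with 0.19 (standard error 1.07, adjusted p = 0.97 by limma). Its levels were -3.69, -0.90 and 1.73 at the lowest, median and highest in exposed animals, against -5.64, -0.21 and 0.98 in control animals. It too was at the floor in control animal 5, and its difference was -0.41 without that array.

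**Figure D5:**
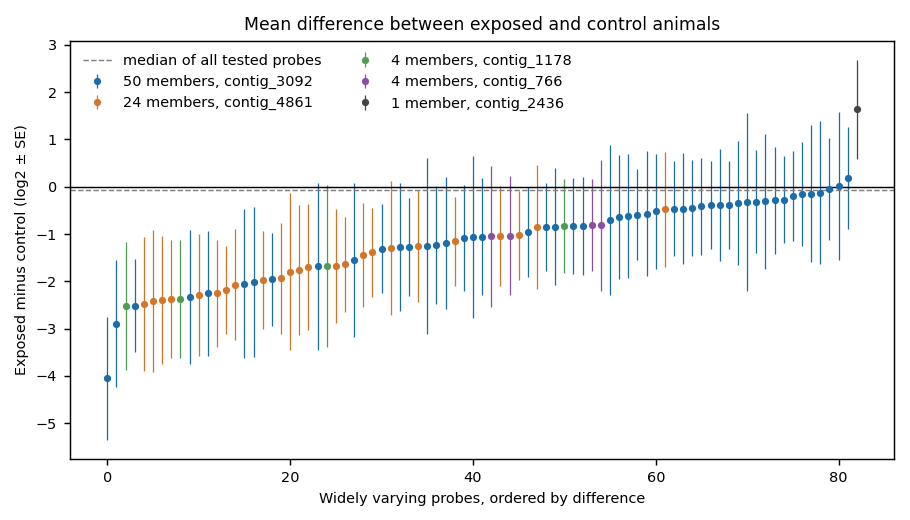
Difference in mean level, exposed minus control, of each of the 83 probes in log2 units (vertical), ordered from lowest to highest and coloured by set, with bars of 1 standard error from limma. The values run from -4.05 to 1.64, 80 of 83 are below 0 and none passed the adjusted test.

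Some of the 7473 tested probes outside the 83 followed the same animals, and their smaller spread follows from the rule. An r above 0.8 to the mean profile of a set was reached by 47 of them for the set of contig_3092. There were 17 for the set of contig_4861, 18 for that of contig_1178 and 8 for that of contig_766. For contig_2436 alone, whose profile rests on 1 spot, there were 20. Of all pairs of tested probes 3.44% had an r above 0.8, a larger share than any of these counts makes of the 7473. By this measure such followers were not frequent. An r to a mean profile is not the same measure as an r of a pair, and the counts were not tested against that share. An r below -0.8 was reached by 2, 0, 0, 3 and 1 probes, in the same order. These are descriptions over 16 arrays that share slides and scaling.

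The identifiers carried 1 further feature. Contigs numbered below 2500 made up 45 of the 83, or 54.2%, against 30.0% of the tested probes, and the median number was 2344, against 4197.5. The cut at 2500 was not among the planned comparisons, so the contrast is a description. The sources used here do not say what the order of the numbers stands for. Only 3 pairs had consecutive numbers. Contig_1177 and contig_1178 had an r of 0.79, contig_1303 and contig_1304 an r of 0.70, and contig_4122 and contig_4123 an r of 0.02, so neighbours in number need not have varied together.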

How the data were processed

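Whole-body RNA extracts of 8 exposed and 8 control animals were measured on single-colour Agilent arrays. The deposited scanner files hold linear spot intensity. Per the file headers, Agilent Feature Extraction 10.7.3.1 had already subtracted the background from the processed signal; version 9.1 is named in the submitters' processing notes. A value table deposited by the authors, in log2 and centred on each row's median, served as an alternative, with its scaling between arrays not given in the sources used here.

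Processed signals were scaled to the 75th percentile of the array's non-control spots, set to at least 0.02, log2-transformed and averaged by probe, without control spots or those flagged as non-uniform or population outliers. Probes well above background on at least 8 arrays were tested with limma 3.58.1 in R 4.3.3 (lmFit, eBayes, two-sided, Benjamini-Hochberg over 7556 probes, threshold 0.05) for mean level and for absolute deviation from the group mean. For arrays, their number limits the precision. The members, lists and tests were chosen with earlier results of these data known.

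The named probes are the 6 with the greatest SD, the 2 with the greatest difference in each direction, those next to the threshold on SD and, for each set of 5 or more, the probe with the highest mean r to its set. Sets were joined by average linkage on 1 minus Pearson r, at a height of 0.5. No probe has a gene name, so no marker list could be applied. On simulated data made from the 7556 probes the test of means recovered 60% of 2-fold and 94% of 4-fold changes, and the test of spread 33% of changes of 8 times. Those changes were placed on probes of all spreads. The normexp alternative used the median signal with an offset of 50. Alternatives covered scaling, floor, background, filters, slide, pairing, weights, thresholds and single arrays left out. Same-numbered exposed and control arrays deviated together with r of -0.37 to 0.72, above 0.1 in 3 of 8 pairs, so the numbers were not taken to pair animals. Figures were drawn with matplotlib 3.10.9.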

Additional observations from a re-analysis of the deposited data

Results flagged for a closer look

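In 4 of 38 sets of 8 animals examined, 1 animal lay apart from the other 7 of its group by more than Dixon's critical value for 8 samples. Chance flags about 1 in 20, or 1.9 of 38, among separate sets not chosen by their spread. The sets here rest on probes chosen by that spread, and some overlap, so the 4 cannot be judged against 1.9. Contig_3644 was at 6.47 in exposed animal 8, with the next exposed animal at 1.17. The median of the set of contig_1178, which holds contig_3644, was 2.06 in the same animal, with the next at -2.96. The share of the summed signal held by the 83 probes was 10.3% in exposed animal 1, with the next at 5.0%. Contig_2436 was at -5.64 in control animal 5, with the next control animal at 2.69.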

How the results depend on the processing

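The number of widely varying probes, 83, was 33 with normexp background correction, which adds 50 to each signal, 27 when a probe had to be well above background on all 16 arrays, 172 at an SD of 1.5 and 49 at an SD of 2.5. It was 63 to 92 under the other alternatives, and 72 to 91 without single animals, where 70 to 83 of the probes were shared. The authors' table gave 83, of which 76 were shared. Of the 83, 4 were called between exposed and control animals on slide 1 alone, 1 with array weights and 0 under every other alternative, single animals left out included. Over all tested probes the 173 calls became 94 with median scaling (59 higher and 35 lower, against 86 and 87), 290 with the slide as a block, 95 and 91 on slides 1 and 2 alone, 285 with array weights and 99 at an adjusted p below 0.01. They were 131 to 209 without single animals. With the replicate number as a block, 167 tested probes and 0 of the 83 were called; the array of the same number was the best correlate for 4 of 16 arrays. The 2 tested probes called for spread became 0 with quantile normalization, a floor of 0.05, normexp, the authors' table or the replicate block. They became 1 with median scaling, the filter on all 16 arrays, deviations within group and slide or squared deviations, and were 1 to 7 without single animals (7 without exposed animal 2); 0 of the 83 were called for spread in any of these. The difference of contig_1420 turned to -0.98 on slide 1 alone and -0.066 with array weights and ran from -0.41 to 0.54 without single animals. Causes were not tested. The sizes of both large sets, 50 and 24, kept within 54 and 25 under 5 alternatives chosen after the data were seen. Dim values limit the ranges: 64 values at the floor have no order.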
